A study of Mus musculus with 10 samples.

Results

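The genes described here encode the receptors for adrenomedullin and for calcitonin gene-related peptide (CGRP), together with the adrenomedullin precursor: Ramp1, Ramp2, Ramp3, Calcrl and Adm. They were taken by symbol from 2 expression tables of mouse heart, and they are 5 of the 20982 genes that either table lists. Ramp1 was selected on its lower values in embryonic knockout hearts, and the others on belonging to the same receptor system, so the embryonic comparison of these genes is given as a description without a test. All 5 genes were listed and passed the low-value filter in both tables. The study measured total RNA from hearts that lack Larp7, which encodes a protein that binds and stabilises the 7SK small nuclear RNA. Whole hearts at E15.5 (embryonic day) came from 3 Larp7+/+ and 3 Larp7-/- samples, the latter with no tissue-specific driver in their label. Heart apex at 4 months came from 2 control samples (CTR, Larp7f/f) and 2 samples labelled mCKO (Myh6Cre;Larp7f/f), in which the Cre recombinase is driven by the cardiomyocyte-specific Myh6 promoter. All samples were C57BL/6, both adult groups carry the floxed alleles, and the label of the adult controls names no Cre. No label ties the samples of a group to different animals. The p-values therefore cover no more than the spread between these samples, and that spread may be technical.

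Calcrl encodes the calcitonin receptor-like receptor, a class B G protein-coupled receptor that reaches the cell surface and binds peptide only with one of the receptor activity-modifying proteins. With RAMP1 it forms the CGRP receptor, and with RAMP2 or RAMP3 it forms the adrenomedullin receptors. These receptors couple mainly to Gs and raise cyclic AMP, and in the heart they are known for their roles in vessels. Mouse embryos without Adm, Calcrl or Ramp2 die in midgestation with oedema and defects of blood or lymphatic vessels. Adm is also a well-known target of the hypoxia-inducible factors.

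Ramp1 has 3 exons in its longest coding transcript and lies on the plus strand at chr1:91179822-91225196, in the mm10 build that the submitters' processing notes name. Calcrl has 16 exons and lies on the minus strand at chr2:84330626-84425411. Adm, with 4 exons, lies on the plus strand at chr7:110627661-110629820. Ramp2 (chr11:101246028-101259546, plus strand, 4 exons) overlaps Vps25 on the same strand, and Ramp3 (chr11:6658521-6677475, plus strand, 3 exons) overlaps the pseudogene Gm11978 on the other strand. Adm overlaps the antisense gene Gm28863. The sources used here do not say whether the counting used strand, so reads of an overlapping or antisense gene could have been assigned differently. The 250 bases before the RefSeq start site (GRCm38.p6) are shown for the 3 genes whose groups did not overlap at E15.5. They run 5′ to 3′ on the strand of the gene. They span chr1:91179572-91179821 for Ramp1, chr2:84425267-84425516 for Calcrl and chr7:110627407-110627656 for Adm. Capitals mark a TATA motif (TATAA) or a GC box (GGGCGG) on either strand.
Ramp1: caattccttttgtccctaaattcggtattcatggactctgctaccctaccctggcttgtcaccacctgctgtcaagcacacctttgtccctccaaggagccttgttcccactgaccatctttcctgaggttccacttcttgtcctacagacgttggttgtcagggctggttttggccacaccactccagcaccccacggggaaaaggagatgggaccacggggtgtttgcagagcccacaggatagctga
Calcrl: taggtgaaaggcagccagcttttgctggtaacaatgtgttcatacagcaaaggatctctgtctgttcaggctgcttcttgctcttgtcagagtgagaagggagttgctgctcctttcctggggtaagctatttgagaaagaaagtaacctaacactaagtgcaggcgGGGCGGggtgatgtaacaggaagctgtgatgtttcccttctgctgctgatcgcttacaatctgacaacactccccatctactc
Adm: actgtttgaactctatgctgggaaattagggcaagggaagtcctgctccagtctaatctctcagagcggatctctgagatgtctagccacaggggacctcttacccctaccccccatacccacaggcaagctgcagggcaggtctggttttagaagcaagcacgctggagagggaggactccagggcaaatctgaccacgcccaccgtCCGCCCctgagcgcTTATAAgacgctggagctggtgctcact
The Ramp1 stretch held neither motif. Calcrl had 1 GC box, whose first base is 83 bases before the start site (position -83). Adm had 1 GC box at -42 and overlapping TATA matches on both strands at -28 and -27, which read TTATAA in capitals. The core letters of the hypoxia response element, ACGTG, were found on neither strand in the 300 bases (250 before and 50 after the start) of Ramp1, Ramp3, Calcrl or Adm. Of 32544 such windows in the RefSeq table, 19.7% held ACGTG, 24.8% TATAA and 35.9% GGGCGG, each on either strand. A match is a description of letters and no evidence of binding.

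The deposited values are per-million values in whole numbers, and each sample summed to between 998498 and 1001508, so sequencing depth and counting error are not known. A control and a knockout sample with the same replicate number added to a fixed total per gene, within 2 units, in 8328 of 8366 genes of the E15.5 table and 8640 of 8656 of the adult table (means of 10 or more). A high knockout value therefore comes with a low value in the control of the same number, and the SDs of the 2 groups are not independent. Larp7 itself read 96, 88 and 103 in the 3 wild-type embryonic hearts and 45, 54 and 40 in the knockouts. In the adult apex it read 26 and 28 in the controls and 26 and 24 in the samples labelled mCKO, and did not pass the test (log2 change -0.11, adjusted p = 0.933, limma). The table thus does not show the deletion in the adult samples, and the sources used here do not name the exons removed. Every adult direction below rests on the mCKO label alone.

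In E15.5 hearts Ramp1 was at 0.5 times its wild-type level in the knockouts, while Calcrl and Adm were higher and Ramp2 and Ramp3 overlapped between the groups. The Ramp1 values were 66, 77 and 71 in the wild type and 41, 30 and 36 in the Larp7-/- hearts, or 71.3 ± 5.51 against 35.7 ± 5.51 (SD, n = 3 each). Every knockout value was below every wild-type value. The change was -0.99 on the log2(value + 1) scale with a standard error of 0.17, the 80th lowest of the 13609 genes tested. These are the values on which the gene was selected, so they carry no test. Genes called in either direction at an adjusted p under 0.05 made up 0.632% of those tested in this table. In 3 of the alternative limma fits 0 genes were called there, with 1100 to 1422 at an unadjusted p under 0.05. Leaving out any single sample kept the log2 change between -1.15 and -0.82. In this blocked fit, the same-numbered partner of that sample then no longer enters the change. Without both samples numbered 3 the means were 71.5 and 35.5. In a bulk sample, fewer cells that express a gene and less of its RNA per cell cannot be told apart.

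Ramp2, whose product pairs with CALCRL in the adrenomedullin receptor of endothelium, read 141, 186 and 160 in the wild-type hearts. In the knockouts it read 171, 126 and 152. The groups overlapped, with means of 162.3 ± 22.6 and 149.7 ± 22.6 (SD, n = 3 each) and a log2 change of -0.12 (SE 0.17). Each pair added to 312, so these 2 SDs are also 1 measure. The sign of this small difference depended on single pairs of same-numbered samples. It lay between -0.32 and 0.10 when a sample was left out, which in the blocked fit takes its pair out of the change. The overlapping Vps25, a subunit of the endosomal sorting complex, read 92, 105 and 87 against 83, 70 and 88. Ramp3, the alternative partner for adrenomedullin, was close to the lower limit of these rounded values, at 2, 2 and 0 in the wild type and 2, 2 and 3 in the knockouts. A difference of a single unit is within rounding at this level, so a change in Ramp3 was not detectable in the embryonic hearts.

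Calcrl, the shared receptor subunit, read 48, 48 and 31 in wild-type hearts, against 52, 51 and 68 in the knockouts. The groups did not overlap, with means of 42.3 ± 9.81 and 57 ± 9.54 (SD, n = 3 each), a log2 change of 0.44 and an SE of 0.20. Most of this difference lay in the samples numbered 3, which held the lowest and the highest of the 6 values. Without both, the means were 48 and 51.5 and the log2 change was 0.10. Adm, the adrenomedullin precursor, read 14, 16 and 1 in the wild type and 24, 22 and 40 in the knockouts. The means were 10.3 ± 8.14 and 28.7 ± 9.87 (SD, n = 3 each), and the log2 change of 1.84 (SE 1.20) was the 16th highest of those tested. Without the samples numbered 3, the means were 15 and 23 and the log2 change was 0.59, with the knockouts still above the wild type in both remaining pairs. The low wild-type value weighs heavily on a log scale: with a pseudocount of 5 in place of 1 the change in Adm was 1.29. The Adm totals of same-numbered samples were 38, 38 and 41, and the last becomes 39 if the value of 1 is given a negative sign. Ramp1, Calcrl and Adm were thus 3 of 5 genes whose groups did not overlap, against 28.1% of all genes tested, and nothing is read from this count because Ramp1 was selected on this comparison.

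**Figure D1:**
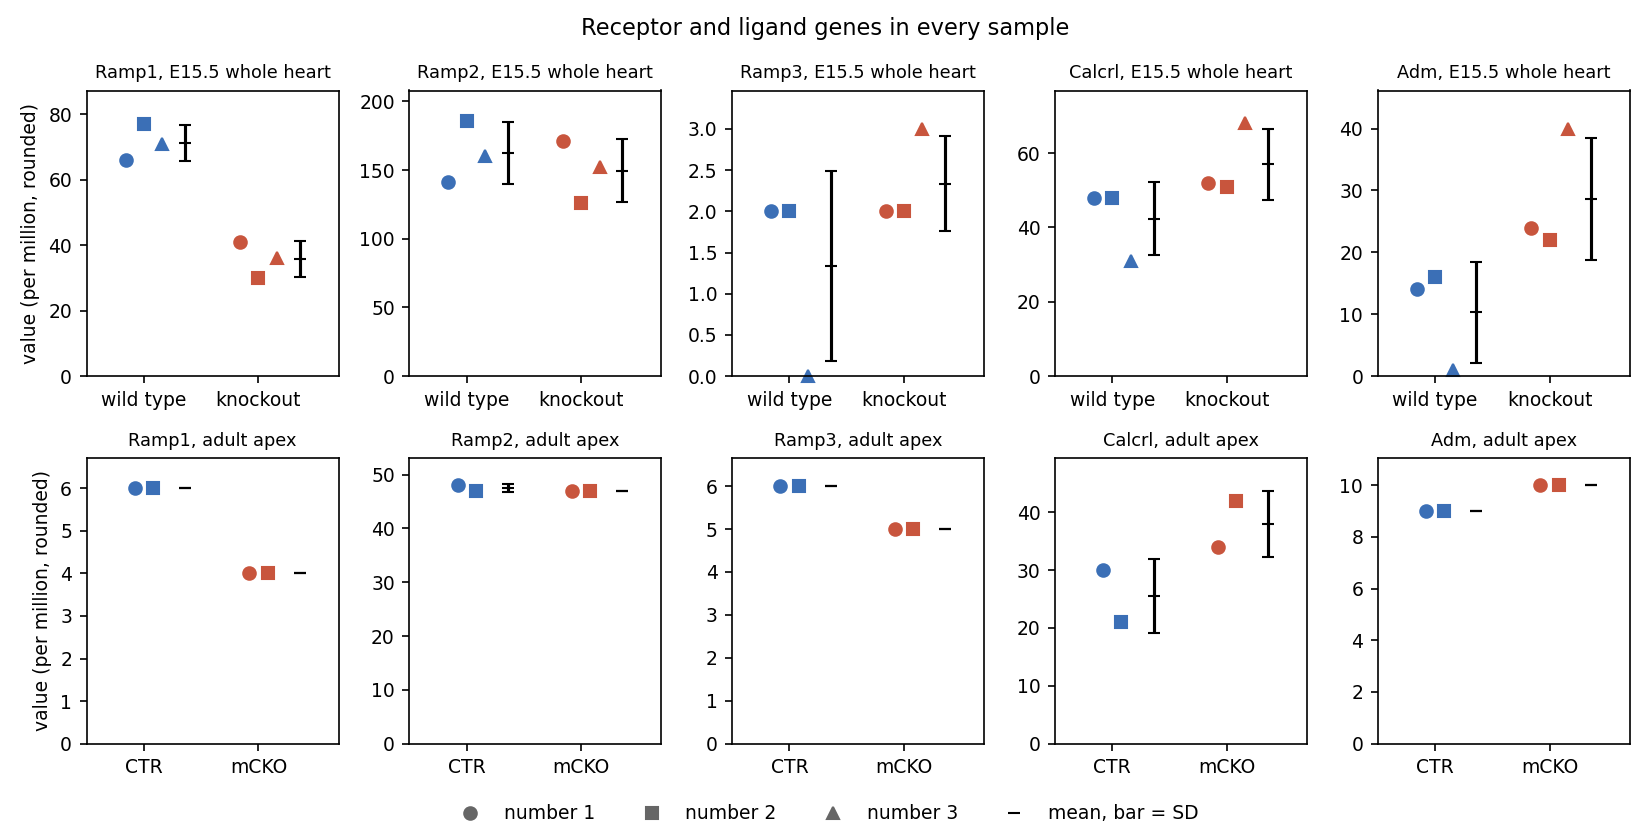
Deposited per-million values (vertical axes, each starting at 0) of the 5 genes in every sample, with the E15.5 hearts above and the adult apex below; symbols give the replicate number, and the bar beside each group is its mean and SD. Ramp1 was between 66 and 77 in the embryonic wild type and between 30 and 41 in the knockouts, and the samples numbered 3 (triangles) hold the extreme Calcrl and Adm values.

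The hypoxia-responsive genes listed beside Adm showed a similar pattern in the same samples. Of 25 genes in this list, the E15.5 table holds 17, and all 17 were tested. The others, among them Epas1, Vegfa and Aldoa, have no row in it and were not removed by the low-value filter. Of the 17, 16 had a positive change (15 with median-of-ratios scaling) and none was called. Their median was 0.60 on the log2 scale against 0.11 for all genes. In 9 of the 17 (52.9%) the wild-type sample numbered 3 held the lowest wild-type value, as for Adm, against 23.5% of all genes tested. In the same 9 the knockout numbered 3 held the highest knockout value (20.5% of all genes had both). The fixed totals tie these 2 extremes together, so they are 1 observation. In 6 of the 17 (35.3%) that wild-type sample was at no more than 0.5 times the next control, against 4.88% of all genes. Egln3, a prolyl hydroxylase that targets hypoxia-inducible factor, read 77, 74 and 4 in the wild type and 74, 78 and 146 in the knockouts. Pfkfb3, an activator of glycolysis, read 57, 45 and 2 against 57, 70 and 113. Slc2a1, the glucose transporter GLUT1, read 272, 253 and 82 against 290, 309 and 480. These 3 genes were chosen after their values were seen. In contrast Hif1a, which encodes the oxygen-regulated subunit itself, read 275, 260 and 243 against 229, 244 and 262. Without the samples numbered 3 the list's median was 0.19 against 0.09 for all genes, 15 of 17 changes were positive, and none was called. Erythroid markers also followed these samples, with summed values of 4082, 4249 and 1481 in the wild type and 2359, 2194 and 4962 in the knockouts. The part of these samples and of erythroid RNA in the Adm difference, beyond the values given, was not tested.

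**Figure D2:**
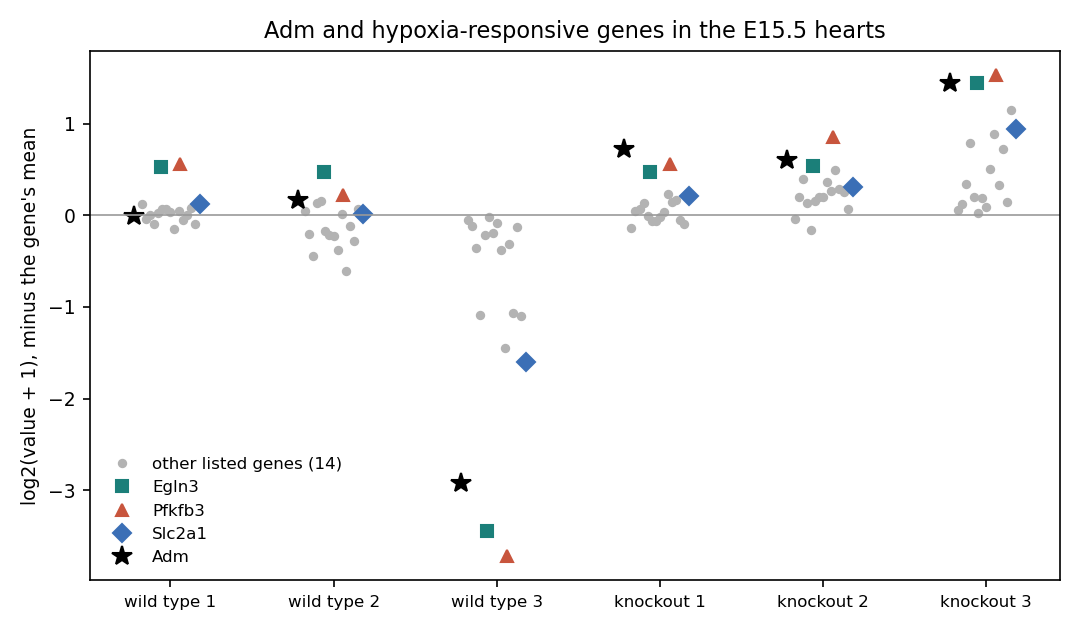
Each E15.5 sample (horizontal axis) with log2(value + 1) of Adm (star) and of 17 hypoxia-responsive genes, each minus its own mean over the 6 samples. Adm, Egln3, Pfkfb3 and Slc2a1 are lowest in wild-type sample 3 and highest in knockout sample 3, where Egln3 reads 4 and 146.

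The adult apex gave a comparison of the same genes in other samples than those whose Ramp1 values led to the selection, although the adult results were also known when the genes were chosen. Only Calcrl passed the test there, and it rose in the samples labelled mCKO. Calcrl read 30 and 21 in the controls and 34 and 42 in the samples labelled mCKO. The means were 25.5 ± 6.36 and 38 ± 5.66 (SD, n = 2 each), a log2 change of 0.57 (SE 0.16, 95% interval 0.25 to 0.89, adjusted p = 0.0212 by limma with Benjamini-Hochberg adjustment). This is 1 gene called of 5, where 3.29% of the 14833 adult genes were called (347 higher and 141 lower; 286 and 210 with median-of-ratios scaling) and 2.34% were called higher. The call was not stable: it was lost in 6 of 13 alternatives, with adjusted p between 9.18e-07 and 0.62, although the direction was the same in all 13. Without the second control the log2 change was 0.32 (adjusted p = 0.133), and without the second mCKO sample it was 0.42 (adjusted p = 0.0802). Such fits leave 1 sample in a group, which is assumed to vary like the other group, and they hold no replicate block, so they differ from the reported fit in both respects. Without the replicate block the adjusted p was 0.176, and the authors' deposited table gives Calcrl a log2 change of 0.51 with p = 0.341.

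Ramp1 read 6 and 6 in the adult controls and 4 and 4 in the samples labelled mCKO. The groups did not overlap, but the log2 change of -0.49 (SE 0.32, 95% interval -1.12 to 0.15) did not pass the test (adjusted p = 0.617, limma). Rounding alone allows the ratio of 0.667 to lie between 0.538 and 0.818. The interval includes both no change and the embryonic value of -0.99. The authors' deposited table gives -0.65 (p = 0.603) for adult Ramp1 and -1.06 for the embryonic hearts. Ramp2 read 48 and 47 against 47 and 47, a log2 change of -0.01 (95% interval -0.31 to 0.28, adjusted p = 1, limma), and the groups overlapped. Ramp3 read 6 and 6 against 5 and 5 (log2 change -0.22, 95% interval -0.83 to 0.38, adjusted p = 0.892, limma). Adm read 9 and 9 against 10 and 10 (log2 change 0.14, 95% interval -0.34 to 0.61, adjusted p = 0.933, limma). For Ramp1, Ramp3 and Adm the values are equal within each group, which was the case in 710 of 3645 adult genes with a mean from 3 to 12 (19.5%) and in 68 of 2540 at E15.5 (2.68%). An SD of 0 at this level reflects whole numbers and is no measure of the spread. In all, 4 of the 5 genes had groups that did not overlap in the adult, where 42.1% of all genes tested did the same.

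**Figure D3:**
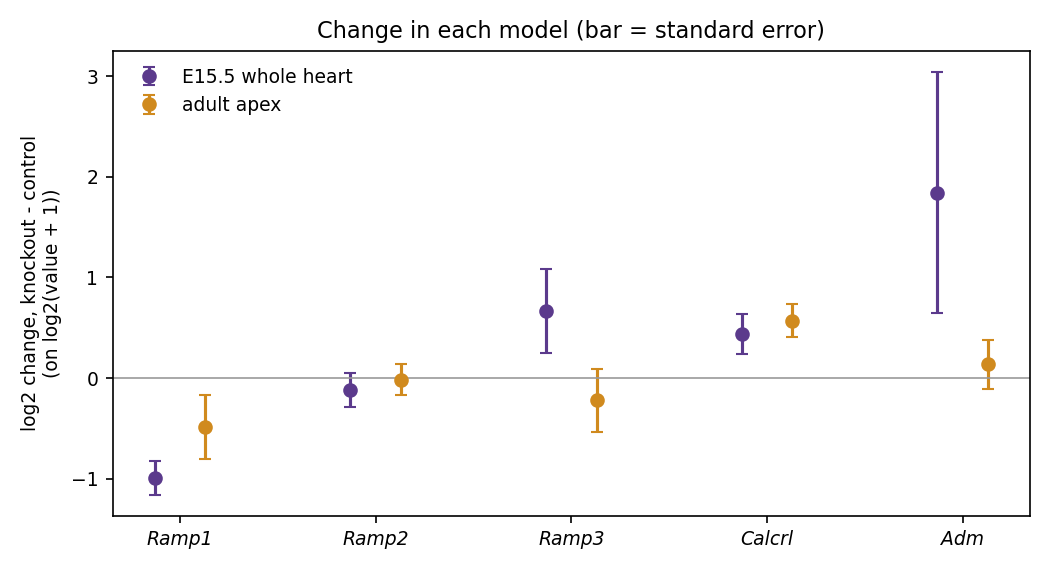
Log2 change between knockout and control on the log2(value + 1) scale for each of the 5 genes, with E15.5 and adult estimates side by side and bars of 1 standard error. Ramp1 is at -0.99 and -0.49, Calcrl at 0.44 and 0.57, and the wide bar is that of embryonic Adm (1.84, SE 1.20).

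The 4 groups can be placed side by side only with care, since the tables were scaled separately and hold whole embryonic heart and adult apex. Ramp1 was at 71.3 and 35.7 in the embryonic wild type and knockout and at 6 and 4 in the adult groups. Calcrl was at 42.3 and 57 in the embryonic groups and at 25.5 and 38 in the adult groups, where the embryonic wild type (31 to 48) overlapped the adult mCKO values (34 and 42). Ramp2 was at 162.3 and 149.7, then at 47.5 and 47, and its groups did not differ beyond their spread within either table. The overlapping Vps25 read 70 to 105 in the embryonic samples, but 1 and 1 against 0 and 1 in the adult. Whether reads at this locus were assigned alike in both tables was not tested. Adm was at 28.7 in the embryonic knockouts and between 9 and 10.3 on average in the other groups. Ramp3 had the opposite order, with 1.33 and 2.33 in the embryo and 6 and 5 in the adult.

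Because the RAMP proteins share CALCRL, the difference of the log2 values of a Ramp gene and Calcrl was followed per sample. Only its change is read, because values of different genes may not be per length. At E15.5 the difference between Ramp1 and Calcrl was 0.45, 0.67 and 1.17 in wild-type hearts, against -0.34, -0.75 and -0.90 in the knockouts. The groups did not overlap, and the mean moved by -1.42 (0.76 ± 0.37 to -0.66 ± 0.29, SD, n = 3 each). In the adult the same difference was -2.15 and -1.65 in the controls and -2.81 and -3.10 in the samples labelled mCKO, a change of -1.06 without overlap. Within each table, Ramp1 was thus lower relative to Calcrl in every knockout sample than in every control. The embryonic separation rests on the values that selected Ramp1, and the adult one on rounded Ramp1 values of 4 to 6. Among single genes, 28.1% of those tested at E15.5 and 42.1% in the adult had groups that did not overlap. The share for differences between 2 genes was not computed. Ramp2 relative to Calcrl changed by -0.55 at E15.5, where the groups overlapped. In the adult it changed by -0.59 without overlap, from 0.66 and 1.13 in the controls to 0.46 and 0.16 in the samples labelled mCKO. Calcrl is part of both adult differences, and its own log2 change there was 0.57, beside -0.49 for Ramp1 and -0.01 for Ramp2. Ramp1 relative to Ramp2 changed by -0.87 at E15.5, from -1.17 ± 0.09 to -2.04 ± 0.01 (SD, n = 3 each), and by -0.47 in the adult. The groups overlapped in neither table for this difference. Within each embryonic group, Ramp1 and Ramp2 were highest and lowest in the same samples. Same-numbered pairs added to 107 for Ramp1 and to 312 for Ramp2. The order in the knockouts therefore mirrors that in the wild type and is no second observation. No test was made on these differences, because Ramp1 was selected on its embryonic values and 2 samples against 2 cannot give an exact permutation p below 0.333.

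**Figure D4:**
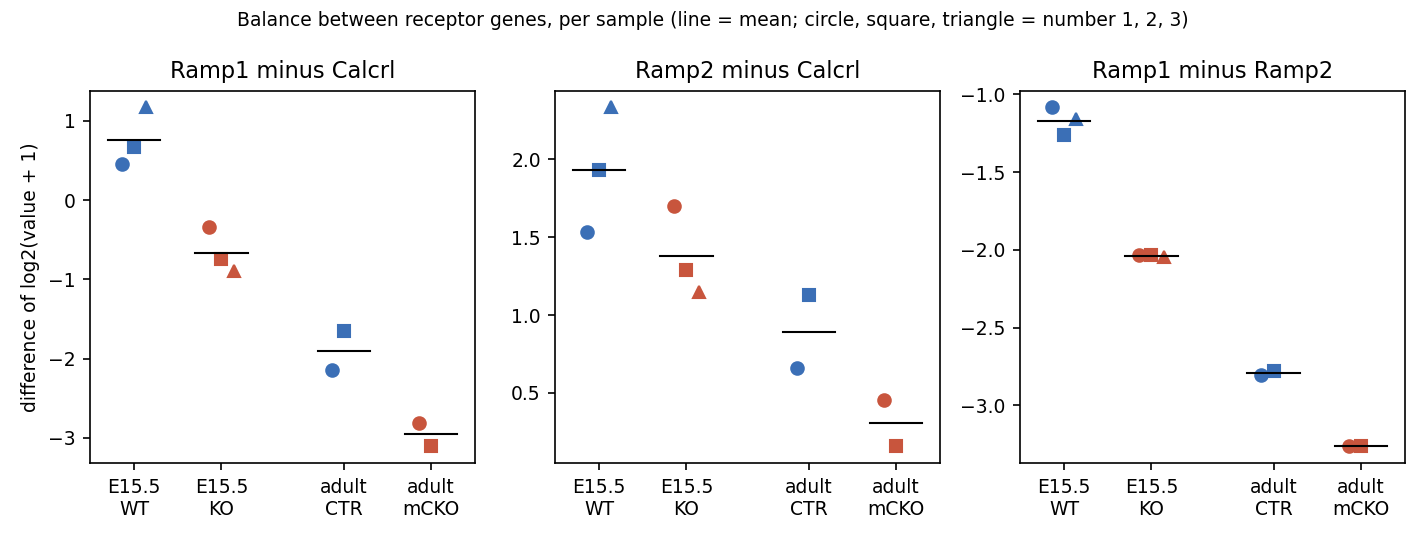
Difference of log2(value + 1) between Ramp1 and Calcrl, Ramp2 and Calcrl, and Ramp1 and Ramp2 in each sample (symbols by replicate number, lines for group means); only shifts within a panel and table are comparable. Ramp1 minus Calcrl is lower in every knockout sample than in every control of its table, with mean changes of -1.42 and -1.06. Ramp2 minus Calcrl overlaps at E15.5 but not in the adult, and Ramp1 minus Ramp2 overlaps in neither table.

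Among the ligands and relatives of the system, none was called in either table. Of 8 listed genes 5 were tested at E15.5 (median log2 change 0.33) and 3 in the adult (0.00). Calca, which encodes CGRP and calcitonin, was at the lower limit in the embryonic hearts (1, 1 and 0 against 1, 2 and 2), as was the calcitonin receptor gene Calcr (1, 1 and 0 against 1, 1 and 1). Ackr3, a scavenging receptor that also takes up adrenomedullin, read 28, 32 and 28 against 41, 37 and 40 at E15.5. The groups did not overlap, but the log2 change of 0.41 did not pass the test (adjusted p = 0.271, limma). In the adult Ackr3 read 106 and 87 against 94 and 112. Crcp, which encodes a component linked to CGRP receptor signalling and to RNA polymerase III, read 47, 45 and 45 against 40, 42 and 42 at E15.5 and 12 and 14 against 14 and 12 in the adult.

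Genes that mature or break down the peptides gave 3 calls among 7 tested in the adult, 2 higher and 1 lower, and none among 6 in the embryo, beside 3.29% of all adult genes and 0.632% of all embryonic genes called. Pam, the enzyme that adds the C-terminal amide required for adrenomedullin activity, rose from 622 and 743 in the adult controls to 1014 and 894 in the samples labelled mCKO (log2 change 0.49, SE 0.14, adjusted p = 0.0183, limma). The call of Pam was lost in 6 of 13 alternatives, among them leaving out the first control (adjusted p = 0.0642), median-of-ratios scaling (0.0535) and plain eBayes (0.664). Mme, the peptidase neprilysin, fell from 14 and 16 to 8 and 6 (log2 change -1.01, SE 0.24, adjusted p = 0.00162, limma). At E15.5 all 6 tested genes of the list had positive changes, with a median of 0.44 against 0.11 for all genes. There Ece1, endothelin-converting enzyme, read 466, 339 and 566 against 705, 834 and 606 (log2 change 0.66, adjusted p = 0.16, limma). The value of Ece1 rested on single pairs of samples: it was 0.95 without a sample numbered 3 (adjusted p = 0.0166 without the wild type and 0.0183 without the knockout, the same remaining pairs, limma), 0.35 without one numbered 2 (0.307 and 0.308) and 0.70 without one numbered 1 (0.296 and 0.292). Mme read 17, 14 and 12 against 18, 21 and 23 in the embryonic hearts, the opposite direction to its adult fall.

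In the cyclic AMP arm downstream of the receptors, 3 of 28 tested genes were called higher in the adult and none lower, where 2.34% of all genes were called higher. Of the 28 changes 19 were positive and 9 negative (18 and 10 with median-of-ratios scaling), and none of 20 genes was called at E15.5. Pde3b, a phosphodiesterase that breaks down cyclic AMP, read 6 and 6 in the adult controls and 14 and 13 in the samples labelled mCKO (log2 change 1.05, adjusted p = 0.00192, limma). Pde8a, another phosphodiesterase, read 24 and 30 against 44 and 38 (log2 change 0.59, adjusted p = 0.0131, limma). Crem, a cyclic AMP responsive transcription factor, read 12 and 9 against 16 and 20 (log2 change 0.73, adjusted p = 0.0202, limma), and without the second mCKO sample its adjusted p was 0.0736. Other phosphodiesterase genes of the list had negative changes that did not pass the test, among them Pde3a (-0.25), Pde4a (-0.31) and Pde4b (-0.32), which were chosen after their values were seen. Gnas, which encodes the Gs subunit, read 51 and 57 against 62 and 55. The list's median change was 0.11 in the adult and 0.15 at E15.5, beside 0.08 and 0.11 for all genes. Other class B receptor genes gave no call, with 6 of 13 tested in each table and medians of -0.05 and 0.07. Gipr, the receptor for the incretin GIP, read 54, 53 and 56 against 55, 56 and 52 at E15.5.

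In the adult the hypoxia-responsive list had 2 genes called higher and none lower of 25 tested, where 2.34% of all genes were called higher, with a median of -0.01. Loxl2, a collagen cross-linking oxidase, rose from 11 and 13 to 31 and 28 (log2 change 1.23, adjusted p = 1.83e-08, limma). Egln3 read 108 and 136 against 126 and 98. The 8 adult calls among the listed genes include Pam, Mme, Pde3b, Pde8a, Crem and Loxl2. All 8 were lost in a blocked fit without the added rounding variance (adjusted p from 0.142 to 0.62, limma). Without the replicate block, the calls of Pam (adjusted p = 0.0769), Pde8a (0.0745) and Crem (0.0818) were among those lost.

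**Figure D5:**
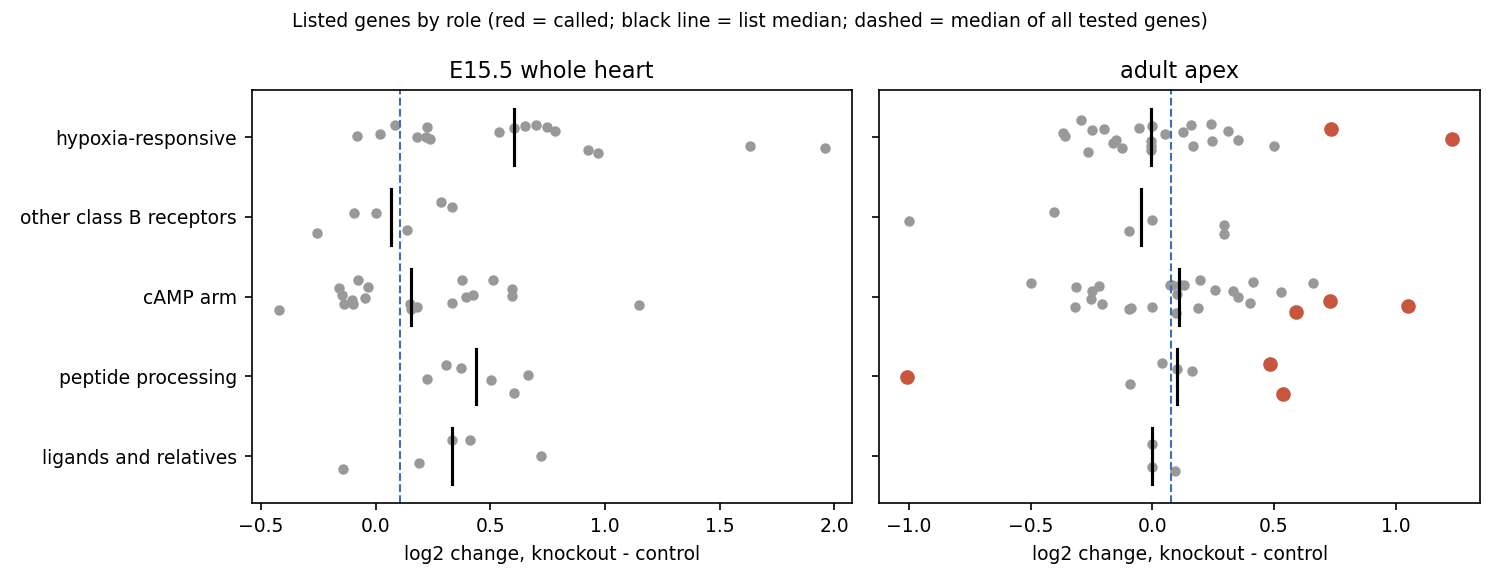
Log2 change between knockout and control for every tested gene of the 5 lists (rows), at E15.5 on the left and in the adult on the right; red points passed the test, black lines are list medians and the dashed line is the median of all tested genes. None of the points is red at E15.5, where the hypoxia-responsive list has a median of 0.60, and 8 are red in the adult.

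Markers of the cell types that could hold these receptors were read beside the results. Blood endothelial markers, with 9 tested at E15.5, had 7 positive changes, a median of 0.28 and no call. Their summed values were 1433 to 1551 in the wild type and 1580 to 1697 in the knockouts, higher in the same direction as Calcrl and opposite to Ramp1. In the adult all 10 had negative changes with a median of -0.11 and no call, and the sums were 1145 to 1180 in the controls and 1036 to 1072 in the samples labelled mCKO, opposite to the rise of Calcrl. Lymphatic endothelial markers had medians of 0.02 and 0.16. Of these, Pdpn rose in the adult (12 and 5 against 13 and 19, adjusted p = 0.0047, limma), with summed values of 165 to 184 against 180 to 199. Of 4 smooth muscle and pericyte markers tested at E15.5, 2 had positive and 2 negative changes, with a median of -0.01. Rgs5, a regulator of G protein signalling in pericytes, fell (83, 76 and 80 against 39, 47 and 42, adjusted p = 0.00694, limma). Kcnj8 (-0.30) was also lower, while Pdgfrb (0.32) and Abcc9 (0.28) were higher, and none of these 3 was called. The summed level of that list was 319 to 370 in the wild type and 339 to 389 in the knockouts. In the adult it was 1261 to 1266 against 1173 to 1176, with a median change of -0.05 and no call. Cardiomyocyte markers were at 18812 to 21843 in the wild-type embryonic hearts and at 14421 to 17451 in the knockouts, with 5 of 7 changes negative, a median of -0.40 and no call. In the adult they were at 61203 to 61702 against 57297 to 57796, with a median of -0.04. Of the listed markers of these 4 cell types, those at 0 in any sample were Ccl21a in embryonic knockout 1, and Tagln and Myl7 in adult samples, where they read at most 1. The part of these cell types in the receptor values was not tested.

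The markers of the remaining cell types moved as follows. Fibroblast markers had a median of 0.33 at E15.5 and of 0.39 in adult apex, where they summed to 1313 and 1588 in the controls and to 2529 and 2254 in the samples labelled mCKO. Of these, Pdgfra rose at E15.5 (71, 72 and 69 against 115, 115 and 118, adjusted p = 0.0296, limma). Epicardial markers had medians of 0.40 and 1.06, with adult sums of 60 and 24 in the controls and 73 and 108 in the samples labelled mCKO. Of these, 1 of 6 was called in the adult, Aldh1a2 (15 and 7 against 22 and 29), beside 3.29% of all adult genes called. Macrophage markers had medians of 0.08 and 0.23 and no call. Nerve and Schwann markers summed to 8 to 12 in every embryonic sample, and 1 was called in the adult, Ncam1 (0 and 4 against 10 and 6). Erythroid markers had medians of 0.32 and 1.23, with adult sums of 653 and 58 in the controls and 561 and 1271 in the samples labelled mCKO. The lowest adult sum was in control 2 and the highest in mCKO 2 for erythroid, epicardial and lymphatic endothelial markers, as for Calcrl. For fibroblast, macrophage and nerve and Schwann markers these extremes were in the samples numbered 1. Stratified epithelium markers had medians of 0.39 and -0.07 and were highest in embryonic knockout 1, with a sum of 215. The marker genes called in a list were named after their values were seen, and the part of these cell types in the results was not tested.

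For each of the 5 genes, the genes with the closest pattern were taken over all 10 samples, by the root mean square difference of log2 values centred within each table, among 5638 genes with a mean of at least 10 in both tables. The closest to Ramp1 were mt.Cytb, which encodes cytochrome b of respiratory complex III (root mean square difference 0.124), the complex I subunit genes Ndufc1 (0.151) and Ndufa13 (0.151), Trappc6a (0.154) and Smim8 (0.16). The median gene differed from Ramp1 by 0.484. For Ndufc1 the means were 91.7 and 54.3 in the embryonic groups and 232 and 188 in the adult. The closest to Ramp2 were Calr, Tesk1 and Ppp1r11, with differences from 0.044 to 0.052. The closest to Ramp3 were Smad6 (0.090), Ppp1r13l and Clasrp, although Ramp3 itself is at the lower limit in the embryo. The closest to Calcrl were Blvrb (0.0998), Mt1 (0.107) and Gpc3 (0.115). Fosl2 (0.142), Fnip2 (0.150) and Irs2 (0.179) were closest to Adm, whose median gene differed by 1.08. Fosl2, a transcription factor of the AP-1 group, had means of 34.3 and 72.7 in the embryonic groups and 42 and 50 in the adult. The neighbours depended on the samples used: with the E15.5 samples alone, 2 of the 5 named for Ramp1 remained (mt.Cytb and Smim8), 1 of 3 for Ramp3, 2 of 3 for Adm, and none for Ramp2 or Calcrl. These distances describe likeness over samples that share a fixed total by number, and they carry no test.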

How the data were processed

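Total RNA was extracted by column with DNase treatment from 10 frozen heart samples, per the labels' protocols. The submitters' processing notes name HISAT2, HTSeq and mm10, with no versions. The authors deposited 1 table per age with a score for each gene in each sample, which is a per-million value rounded to a whole number. The sources used here do not say whether it is TPM or CPM, or how it was adjusted. The deposited tables also give the authors' log2 fold changes and p-values, per the file headers. Depth is lost, so no counting interval is given. All sample columns were mapped, and 2 adult rows that share a symbol were left out.

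Each table was tested by itself on log2(value + 1) by limma (version 3.58.1, R 4.3.3), for genes that reached a value of 1 in at least as many samples as a group holds (3 at E15.5, 2 in the adult). The replicate number was a block, because same-numbered values of a gene add to a fixed total and so mirror each other; this comes from the values, not from the labels. A rounding variance of 0.0833 on the value scale was added per gene, eBayes used trend and robust, and Benjamini-Hochberg adjusted p under 0.05 made a call. With 1 residual degree of freedom per adult gene and 2 per embryonic gene, the spread is largely pooled over genes. On data simulated with an assumed spread the fits recovered the changes made, but more calls were false than the nominal share. Adjusted p-values near the threshold are therefore to be read with caution. The changes were placed only in genes with a mean of at least 10. Recovery was thus not examined for genes at lower values, among them adult Ramp1, Ramp3 and Adm. The members and lists were chosen with earlier results of these data known.

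Named genes were the 5 members, each listed pathway gene called in either table, up to 4 further genes per list in list order, and the genes nearest in pattern (5 for Ramp1, 3 for the others). Some genes this rule names are not reported here. Lists covered ligands and relatives, peptide processing, the cyclic AMP arm, other class B receptors, hypoxia-responsive genes and markers of 10 cell types. A list gene without a row in a deposited table could not be tested there. At E15.5 this held for Gnas, Acta2, Myh11, Myh6, Ryr2 and Dcn, among others. Positions come from GENCODE vM21 (GRCm38, as mm10) and promoters from RefSeq GRCm38.p6, in which 4 of the 5 genes were matched and Ramp2 was not. Alternatives were the fit without the block, without the rounding variance or without both, pseudocounts of 0.5 and 5, no filter, a mean of at least 10, median-of-ratios scaling, plain eBayes, leaving out each sample, and, chosen after seeing the data, leaving out both samples numbered 3.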

Additional observations from a re-analysis of the deposited data

Results flagged for a closer look

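For 2 peptidase genes of the peptide processing list, every knockout sample lay above every control at E15.5 and below every control in the adult. The log2 change of Mme was 0.51 (SE 0.22) at E15.5 and -1.01 (SE 0.24) in the adult, and that of Ece1 was 0.66 (SE 0.21) and -0.0902 (SE 0.15). Only the adult fall of Mme passed the test, and the differences between the ages were not tested. Groups that do not overlap, in either direction, made up 28.1% of all embryonic and 42.1% of all adult genes tested. The adult values of Ece1 (88 and 92 against 87 and 82) are separated by a single unit, and at E15.5 leaving out a sample numbered 3 moved Mme to 0.32, while leaving out one numbered 2 moved Ece1 to 0.35.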

How the results depend on the processing

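Over all results and alternatives, no direction of a called value was reversed. Of 895 alternative values, 790 kept their side of the threshold, stayed within the spread or, for counts, were of similar size. This total is no measure of stability, since a gene called in neither fit is included whatever its sign. Embryonic Adm is included throughout, because its own spread is wide, although its change ranged from 0.59 to 2.55. The number of genes called at E15.5 moved in 16 of 16 alternatives. At E15.5 the 86 genes called became 604 without the replicate block, 0 with the block but no rounding variance (1422 at an unadjusted p under 0.05, limma), 1040 with neither, 46 and 232 with pseudocounts of 0.5 and 5, 601 without a filter, 0 with a mean of at least 10 (1100 unadjusted), 39 with median-of-ratios scaling (26 higher and 13 lower, against 72 and 14), and 0 with plain eBayes (1166 unadjusted). Leaving out 1 sample gave 213 to 506 and leaving out both samples numbered 3 gave 307. The 0 pathway genes called there became 3, 4, 3 and 7 without the block, with neither, with a pseudocount of 5 and without a filter, 1 to 6 without 1 sample, and 1 without both samples numbered 3. In the adult the 488 genes called became 1130 with the block and no rounding variance, 1622 with neither, and 625 to 1285 without 1 sample, where no block could be fitted. The count of 8 adult pathway genes called became 2 with the block and no rounding variance, and 4 with plain eBayes. It became 9 to 14 without 1 sample. None of the 8 genes was among those 2, which included Glp2r (1 and 1 against 0 and 0, adjusted p = 0.028, limma). Glp2r was also among the 4 called with plain eBayes.

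The adult change of Calcrl, 0.57, kept its value and lost its call without the block (adjusted p = 0.176), with the block and no rounding variance (0.62), with neither (0.402) and with plain eBayes (0.604); without 1 sample it was 0.32 to 0.82. The adult changes of Ramp1 (-0.49), Ramp3 (-0.22) and Adm (0.14) passed with the block and no rounding variance (adjusted p = 0.028, 0.0378 and 0.0488) and with neither (0.000161, 0.00039 and 0.000562), where an SD of 0 from rounding enters the spread; with a mean of at least 10 these 3 could not be fitted. At E15.5, Ramp2 ranged from -0.32 to 0.10 and Calcrl from 0.10 to 0.61 when 1 sample was left out. In these blocked fits its same-numbered partner then no longer enters the change. Calcrl was likewise at 0.10 without both samples numbered 3. Ramp1 relative to Ramp2 moved to -0.80 at E15.5 with a pseudocount of 5, and to -0.52 and -0.28 in the adult with 0.5 and 5. The causes were not tested. Depth is unknown, and whole-number values limit what can be seen for Ramp3 and for adult Ramp1.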
